A study of Mus musculus with 19 samples.

Results

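The fatty acid oxidation enzymes described here were 37 genes whose products carry fatty acids into mitochondria and peroxisomes and break them down there, chosen by name and not by any measured value. Earlier results of these data were known when the genes were chosen. Every probe of the array whose symbol in the table of signals was one of these names was taken, and the older names Dci and Peci were read as Eci1 and Eci2. Symbols of 35 of the 37 genes were found, on 57 of the 46643 probes, and 50 of those probes were detected on at least 4 of the 19 arrays, where detected means a detection p under 0.05. These gave 32 genes that were tested among 14761 genes in all. Hadha and Acad11 were not analysed here, because no symbol matched. Slc25a20, the carrier that exchanges acylcarnitine for carnitine across the inner mitochondrial membrane, was detected on 2 arrays by its only probe. The only probe of Hsd17b4, a peroxisomal enzyme of the same steps as Ehhadh, was detected on 0 arrays. So were both probes of Acox3, an oxidase of branched-chain fatty acids. Probes that were not detected do not show that the RNA of these genes was absent. Of the genes tested, 31 were detected on every array by the probe that represented them, and Decr2 on 15 of 19.

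Each array held the RNA of 1 mouse heart. All 19 mice were of the FVB/N strain and were killed at ZT 18, midway through their active period, after 16 weeks of feeding without restriction. Of them, 5 were wild type (WT) on the normal diet, 5 were CCM on the normal diet, 4 were WT on the high fat diet and 5 were CCM on the high fat diet. CCM mice are transgenic animals whose circadian clock does not work in cardiomyocytes, while their other cells keep it. The transgene is known to code for a dominant-negative CLOCK protein driven by a promoter active in cardiomyocytes. The series asked how this clock governs the fat metabolism of the heart, and the comparisons here ask how the oxidation enzymes stood between genotypes and between diets. Only ZT 18 was sampled, so a changed level and a change in the timing or depth of a daily rhythm cannot be told apart. Age and sex are not stated in the labels. A bulk heart sample holds many cell types, and fewer cells of a type cannot be told apart from less RNA per cell.

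Fatty acids are the main fuel of the adult heart. An activated fatty acid enters the mitochondrion as an acylcarnitine, made by CPT1, which malonyl-CoA inhibits, and then loses carbon units in a repeating cycle of dehydrogenation, hydration, a further dehydrogenation and thiolysis. Unsaturated fatty acids need additional isomerases and a reductase that move or remove their double bonds, and very long or branched chains are shortened in peroxisomes. Many of these genes are known targets of PPAR alpha, a nuclear receptor that fatty acids activate.

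Mean signals ran from 418.75 to 580.37 per array, and 17117 to 18731 probes were detected per array. A Clock probe checked the genotype labels and read 6.16 to 8.40 in WT and 14.96 to 15.48 in CCM hearts, with no overlap, on the scale of log2 normalized signals used throughout. All 9 cardiomyocyte markers were measured, and their summed linear signal overlapped between the groups (295000 to 308000 in CCM and 296000 to 314000 in WT hearts on the normal diet, 291000 to 310000 and 286000 to 315000 on the high fat diet). Adjusted p-values are limma's, corrected across the 14761 genes after Benjamini and Hochberg, and a gene is said to rise or fall only where it is under 0.05. Values after ± are standard errors unless SD is named.

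Averaged over both diets, 3 of the 32 enzymes fell in CCM hearts and 0 rose, where 5.02% of all genes tested changed and 2.62% fell. The 3 were Ehhadh, Eci1 and Ech1, which handle peroxisomal oxidation and double bonds. Averaged over both genotypes, Decr1 and Eci1, both of which act on double bonds, rose on the high fat diet and 0 enzymes fell, where 0.305% of all genes changed and 0.251% rose. Most of the enzymes lay on the same side without passing: 25 of 32 had a difference above 0 between the diets (78.1%, and 49.6% of all genes), with a median of 0.15 where all genes had 0. For the genotype, 11 of 32 had a difference above 0 (34.4%, and 50.9% of all genes), with a median of -0.07 where all genes had 0. Across the other background corrections and normalizations these medians stayed at 0.12 to 0.18 for the diet and -0.08 to -0.02 for the genotype. The widest fold of the 32 in any comparison was 1.59.

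**Figure D1:**
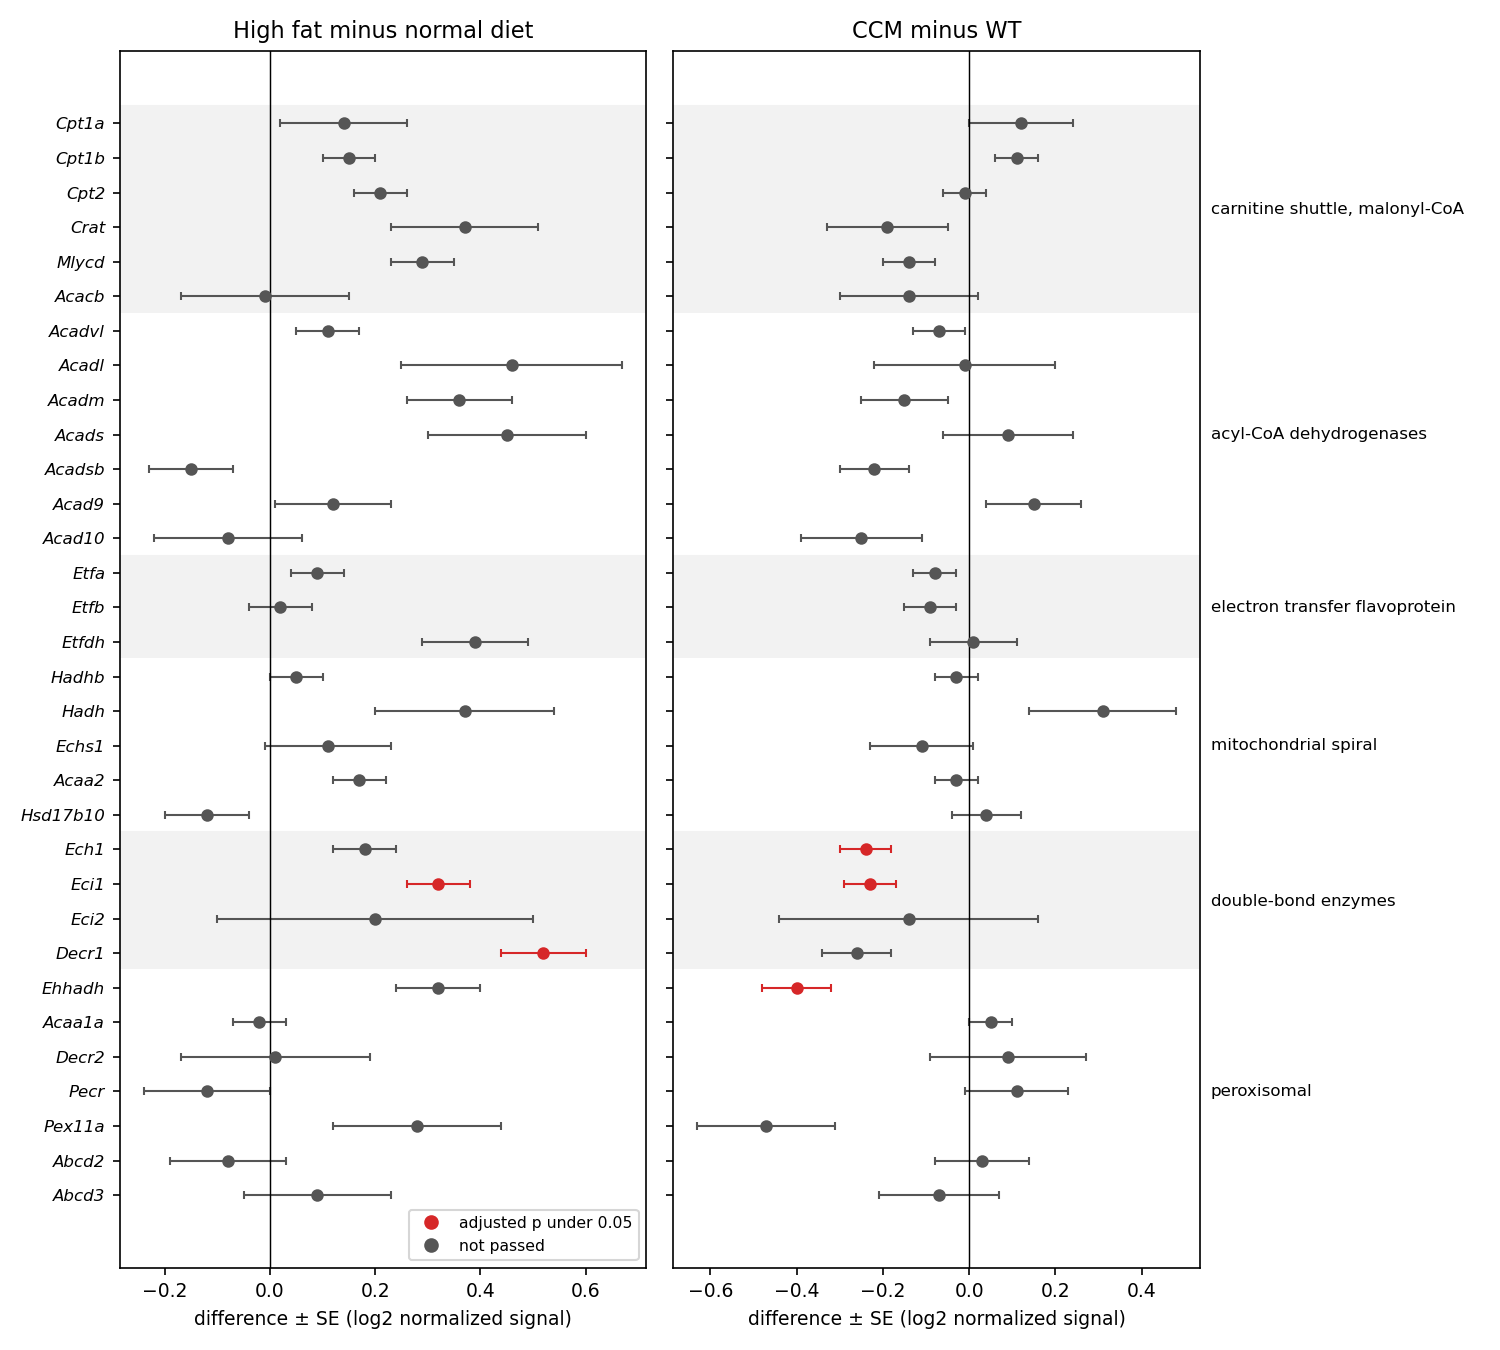
Difference of each of the 32 genes on the log2 scale (points, with standard errors as bars) between the diets, averaged over the genotypes (left), and between the genotypes, averaged over the diets (right), ordered by role. Decr1 and Eci1 passed on the left (red, 0.52 and 0.32), Ech1, Eci1 and Ehhadh passed on the right (-0.24, -0.23 and -0.40), and most points on the left lie above 0.

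Counted by diet and genotype separately, fewer enzymes passed. On the high fat diet Ehhadh alone fell in CCM hearts (1.95% of all genes changed and 1.09% fell), and on the normal diet 0 of 32 passed (1.91% of all genes changed). Between the diets 0 of 32 passed in WT hearts, where 0.0406% of all genes did, and 0 of 32 in CCM hearts, where 0.0271% did. At an unadjusted p under 0.05, 12 enzymes were higher on the high fat diet in WT hearts (1.98% of all genes) and 8 in CCM hearts (4.27%). Lower on it were 0 in WT hearts (1.11% of all genes) and 2 in CCM hearts (4.49%). At that same threshold 6 were lower in CCM than WT hearts on the high fat diet (5.60% of all genes) and 2 on the normal diet (4.53%). Higher in CCM hearts were 0 on the high fat diet (5.09% of all genes) and 1 on the normal diet (4.94%). The response to diet did not differ between the genotypes by limma for any of the 32 (adjusted p = 1 for each), nor for any of all genes (0%). At an unadjusted p under 0.05 the same test called 0 of 32 enzymes and 2.71% of all genes.

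Ehhadh, Pex11a, Ech1 and Eci1 are shown by their promoters, since these genes fell in CCM hearts, Pex11a by its dimmer probes only. The windows come from RefSeq (assembly GRCm38.p6) and run 300 bases, from 250 before to 50 after the annotated start, in the direction of the gene. They lie at chr16:21787785-21788084 on the minus strand (Ehhadh), chr7:79743082-79743381 on the minus strand (Pex11a), chr7:28825088-28825387 on the plus strand (Ech1) and chr17:24426433-24426732 on the plus strand (Eci1). Capitals mark the GC box GGGCGG or its complement CCGCCC, the motif that Sp1 family factors bind.
Ehhadh: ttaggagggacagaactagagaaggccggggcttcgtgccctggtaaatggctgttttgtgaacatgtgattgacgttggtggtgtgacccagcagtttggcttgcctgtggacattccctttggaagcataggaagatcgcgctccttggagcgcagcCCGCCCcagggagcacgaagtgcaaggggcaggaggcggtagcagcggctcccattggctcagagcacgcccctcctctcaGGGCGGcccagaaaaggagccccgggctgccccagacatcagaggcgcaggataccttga
Pex11a: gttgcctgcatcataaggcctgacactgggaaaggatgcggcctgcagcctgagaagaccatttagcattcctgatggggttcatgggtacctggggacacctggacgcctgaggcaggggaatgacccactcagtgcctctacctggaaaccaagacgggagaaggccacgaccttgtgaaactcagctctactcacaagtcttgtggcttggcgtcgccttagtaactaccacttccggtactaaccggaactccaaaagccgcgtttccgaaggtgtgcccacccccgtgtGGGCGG
Ech1: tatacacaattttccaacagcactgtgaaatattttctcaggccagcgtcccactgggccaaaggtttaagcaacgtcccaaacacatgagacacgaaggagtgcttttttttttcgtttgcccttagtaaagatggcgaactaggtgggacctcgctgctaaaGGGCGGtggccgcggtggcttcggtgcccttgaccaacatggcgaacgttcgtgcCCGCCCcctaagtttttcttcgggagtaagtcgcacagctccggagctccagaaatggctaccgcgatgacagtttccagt
Eci1: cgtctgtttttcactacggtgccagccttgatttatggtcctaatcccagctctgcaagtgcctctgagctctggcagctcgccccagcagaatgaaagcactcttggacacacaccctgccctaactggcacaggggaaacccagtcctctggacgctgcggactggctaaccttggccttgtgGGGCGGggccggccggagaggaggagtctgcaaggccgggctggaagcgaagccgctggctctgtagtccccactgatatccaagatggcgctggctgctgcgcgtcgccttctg
The Ehhadh window held 2 GC boxes, at -91 and -10 from the start, and the Ech1 window 2, at -86 and -31. The Eci1 window held 1 at -65 and the Pex11a window 1 at 44 after the start. In the table of promoters, 30 of the 37 genes had a window, 31 windows in all. The GC box on either strand stood in 23 of the 31 (74.2%), and in 35.7% of the 32851 windows of all genes. The windows of the enzymes were richer in G and C (median 60.7%, and 52.7% in all windows).

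Other motifs were searched on both strands of the same windows. The PPAR response element, a spaced direct repeat that PPAR and RXR bind, stood in 0 of the 31 windows and in 0.381% of all windows. The single hexamer AGGTCA stood in 5 of 31 (16.1%, and 16.3% of all), those of Acacb, Acadm, Acadvl, Cpt1a and Echs1. TCAAGGTCA, the element of the estrogen-related receptors, stood in 0 of 31 (0.423% of all), a share at which 0 does not show absence either. The E-box CACGTG, which CLOCK and BMAL1 bind, stood in 0 of 31 (7.15% of all), and the D-box core TTANNTAA in 1, Acadvl (6% of all). This hexamer and the GC box were added after the other motifs had been searched. The PPAR and estrogen-related receptor elements can hold the hexamer. Known PPAR elements of such genes often lie outside a window of this size. The windows of Hadha and Hadhb, the partner subunits of the trifunctional protein, overlapped by 228 bases on opposite strands.

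Within the carnitine shuttle and the control of malonyl-CoA, 6 of 7 genes were tested and 0 passed in any comparison. The median difference between the diets was 0.18 and that between the genotypes -0.07. Cpt2, the carnitine palmitoyltransferase of the inner membrane, read 13.68, 13.77, 13.75, 13.67 and 13.79 in WT and 13.77, 13.80, 13.81, 13.63 and 13.68 in CCM hearts on the normal diet. On the high fat diet it read 14.04, 13.97, 13.89 and 13.95 in WT and 13.91, 14.10, 13.83, 13.92 and 13.92 in CCM hearts. By this brighter of its 2 probes every heart on the high fat diet was above every heart on the normal diet. Among the enzymes, by the probes that represented them, this held for Cpt2 alone, and among all genes for 0.0339%. The difference of 0.21 ± 0.05 (1.16-fold) did not pass (adjusted p = 0.0939). By the dimmer Cpt2 probe the diets overlapped (13.02 to 13.38 on the high fat diet, 12.79 to 13.23 on the normal diet), with a difference of 0.19 ± 0.07. Mlycd, the decarboxylase that removes malonyl-CoA, read 12.42, 12.40, 12.36 and 12.38 in WT hearts on the high fat diet and 11.98, 12.09, 12.10, 12.19 and 11.90 on the normal diet, with no overlap. In CCM hearts its values overlapped (12.00 to 12.41 on the high fat diet, 11.79 to 12.12 on the normal diet), and the difference over both genotypes was 0.29 ± 0.06 (adjusted p = 0.0642). Cpt1b, the muscle form of the outer-membrane transferase, was higher on the high fat diet by 0.15 ± 0.05 (adjusted p = 0.398) and in CCM by 0.11 ± 0.05 (adjusted p = 0.326). Its mean was higher in CCM hearts on both diets (13.87 against 13.73, and 13.98 against 13.91).

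Cpt1a, the form of CPT1 that predominates in liver, stood at 5.80 ± 0.13 (SD, n = 4) in WT and 6.14 ± 0.34 (SD, n = 5) in CCM hearts on the high fat diet, against 5.88 ± 0.33 and 5.78 ± 0.15 (SD, n = 5 each) on the normal diet. Of the 32 enzymes its response to diet differed most between the genotypes, by 0.45 (95% interval -0.04 to 0.93), without passing. Single hearts stood far from the rest in 2 of its groups, WT normal replicate 1 at 6.46 and CCM high fat replicate 2 at 6.74. Crat, which exchanges short acyl groups between CoA and carnitine, was measured by 4 probes whose diet differences were 0.37, 0.26, 0.12 and 0.10. Acacb, the carboxylase that makes malonyl-CoA at the mitochondrial surface, showed -0.01 ± 0.16 between the diets and -0.14 ± 0.16 between the genotypes.

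The acyl-CoA dehydrogenases open each round of the cycle on chains of different lengths. Of 8 genes 7 were tested, 0 passed in any comparison, and the medians were 0.12 between the diets and -0.07 between the genotypes. Acadm, the medium-chain enzyme, read 13.83, 14.23, 14.26 and 14.23 in WT hearts on the high fat diet and 13.71 to 13.86 on the normal diet. In CCM hearts it spread more widely, from 13.27 to 14.13 on the normal diet and from 13.76 to 14.17 on the high fat diet, so that the groups overlapped. The difference over both genotypes was 0.36 ± 0.10 (adjusted p = 0.284). Acads, the short-chain enzyme, was 0.45 ± 0.15 higher on the high fat diet (adjusted p = 0.385), and Acadvl, the very-long-chain enzyme of the inner membrane, 0.11 ± 0.06 (adjusted p = 0.622). Acadl, the long-chain enzyme, gave 0.46 ± 0.21 by its brighter probe and 0.03 ± 0.28 by its dimmer probe. Acadsb, which acts on short branched chains from isoleucine, went the other way between the diets (-0.15 ± 0.08) and was lower in CCM by 0.22 on average (-0.22 ± 0.08, adjusted p = 0.163). The lowest Acadsb value was in a CCM heart on the high fat diet (12.28 to 12.65 in that group), and the group overlapped those of WT hearts on that diet (12.41 to 12.91). Acad9, also an assembly factor of respiratory complex I, and Acad10 differed by 0.12 ± 0.11 and -0.08 ± 0.14 between the diets.

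Electrons from these dehydrogenases pass through the electron transfer flavoprotein, made of the subunits Etfa and Etfb, to Etfdh, which hands them to ubiquinone. All 3 genes were tested and 0 passed. Etfdh read 12.90, 13.06, 13.22 and 12.95 in WT hearts on the high fat diet and 12.76, 12.64, 12.78, 12.46 and 12.63 on the normal diet, with no overlap. In CCM hearts it read 12.96, 13.10, 12.99, 12.99 and 13.24 on the high fat diet and 12.22, 12.75, 12.31, 12.91 and 13.10 on the normal diet, where the ranges overlapped. The difference over both genotypes was 0.39 ± 0.10 (1.31-fold, adjusted p = 0.172). Etfa and Etfb showed 0.09 ± 0.05 and 0.02 ± 0.06 between the diets.

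Of the 6 genes of the later steps of the mitochondrial cycle 5 were tested, 0 passed, and the medians were 0.11 between the diets and -0.03 between the genotypes. Hadhb, the thiolase subunit of the trifunctional protein, hardly moved by its only probe (0.05 ± 0.05 and -0.03 ± 0.05). The interval of its diet difference stayed within 0.15 in size, for the signal of this probe. That signal was bright (14.78 to 15.07 in WT hearts), and whether so bright a probe understates a change in RNA was not tested. Acaa2, the thiolase of the matrix, read 15.02, 15.04, 15.07 and 15.03 in WT hearts on the high fat diet and 14.72 to 14.96 on the normal diet, with no overlap, and the difference over both genotypes was 0.17 ± 0.05 (adjusted p = 0.325). Its other 2 probes gave 0.67 ± 0.19 and 0.75 ± 0.23. Hadh, the hydroxyacyl-CoA dehydrogenase of shorter chains, was 0.37 ± 0.17 higher on the high fat diet (adjusted p = 0.595) and had the highest genotype difference of the 32 (0.31 ± 0.17, adjusted p = 0.462). Echs1, the enoyl-CoA hydratase, gave 0.11 ± 0.12 by its brighter and -0.22 ± 0.11 by its dimmer probe. Hsd17b10, which acts on isoleucine-derived chains and in mitochondrial RNase P, gave -0.12 ± 0.08.

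Both enzymes that rose with the diet act on double bonds. All 4 genes grouped under this role were tested, with medians of 0.26 between the diets and -0.23 between the genotypes. Of them 2 rose with the high fat diet and 2 fell in CCM hearts. Decr2, a peroxisomal reductase that also acts on double bonds, was grouped with the peroxisomal genes and did not follow. It gave 0.01 between the diets, with means of 5.91 in CCM and 5.82 in WT hearts over both diets. Decr1, the mitochondrial dienoyl-CoA reductase, read 11.75, 11.46, 11.72 and 11.71 in WT hearts on the high fat diet and 10.94, 11.31, 11.07, 11.24 and 10.89 on the normal diet. In CCM hearts it read 11.36, 11.58, 11.05, 11.41 and 11.36 on the high fat diet and 10.55, 10.97, 10.95, 10.92 and 10.95 on the normal diet. Within each genotype every heart on the high fat diet was above every heart on the normal diet. Decr1 rose by 0.52 ± 0.08 over both genotypes (1.44-fold, adjusted p = 0.0056), by 0.57 ± 0.12 in WT and 0.48 ± 0.11 in CCM hearts alone, which did not pass (adjusted p = 0.147 and 0.26). Its genotype difference of -0.26 ± 0.08 did not pass (adjusted p = 0.0779).

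Eci1, the mitochondrial enoyl-CoA isomerase, read 13.23, 13.37, 13.37 and 13.37 in WT hearts on the high fat diet and 12.92, 13.09, 13.05, 12.97 and 12.96 on the normal diet. In CCM hearts it read 13.12, 13.05, 12.97, 13.05 and 13.28 on the high fat diet and 12.66, 12.88, 12.65, 12.85 and 12.89 on the normal diet. Its groups separated by diet within each genotype, and on the normal diet every CCM heart was below every WT heart. By the probes that represented the genes, Eci1 alone of the 32 changed with both factors: it rose by 0.32 ± 0.06 on the high fat diet (1.25-fold, adjusted p = 0.0112) and fell by 0.23 in CCM hearts (-0.23 ± 0.06, 1.17-fold, adjusted p = 0.0212). Without WT normal replicate 4 and CCM normal replicate 3, taken out together after the values were seen, neither passed (0.30, adjusted p = 0.0506, and -0.21, adjusted p = 0.0574). Without the 3 arrays of lowest mean signal, neither Eci1 nor Decr1 passed between the diets, and Eci1 and Ech1 did not pass between the genotypes.

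Ech1, the dienoyl-CoA isomerase, read 14.97, 14.92, 14.93 and 14.90 in WT and 14.52, 14.55, 14.55, 14.63 and 14.68 in CCM hearts on the high fat diet. On the normal diet it read 14.45, 14.68, 14.66, 14.83 and 14.63 in WT and 14.41, 14.58, 14.78, 14.37 and 14.41 in CCM hearts. The genotypes were apart on the high fat diet and overlapped on the normal diet. Ech1 fell by 0.24 in CCM hearts over both diets (-0.24 ± 0.06, adjusted p = 0.0286), and the difference on the high fat diet alone was -0.34 ± 0.09 (adjusted p = 0.0647). The call over both diets was lost when any of 9 animals was left out, and reached an adjusted p of 0.059 when this was WT high fat replicate 1. Eci2, an isomerase found in mitochondria and peroxisomes, spread from 7.07 to 8.88 over the hearts and showed 0.20 ± 0.30 between the diets.

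**Figure D2:**
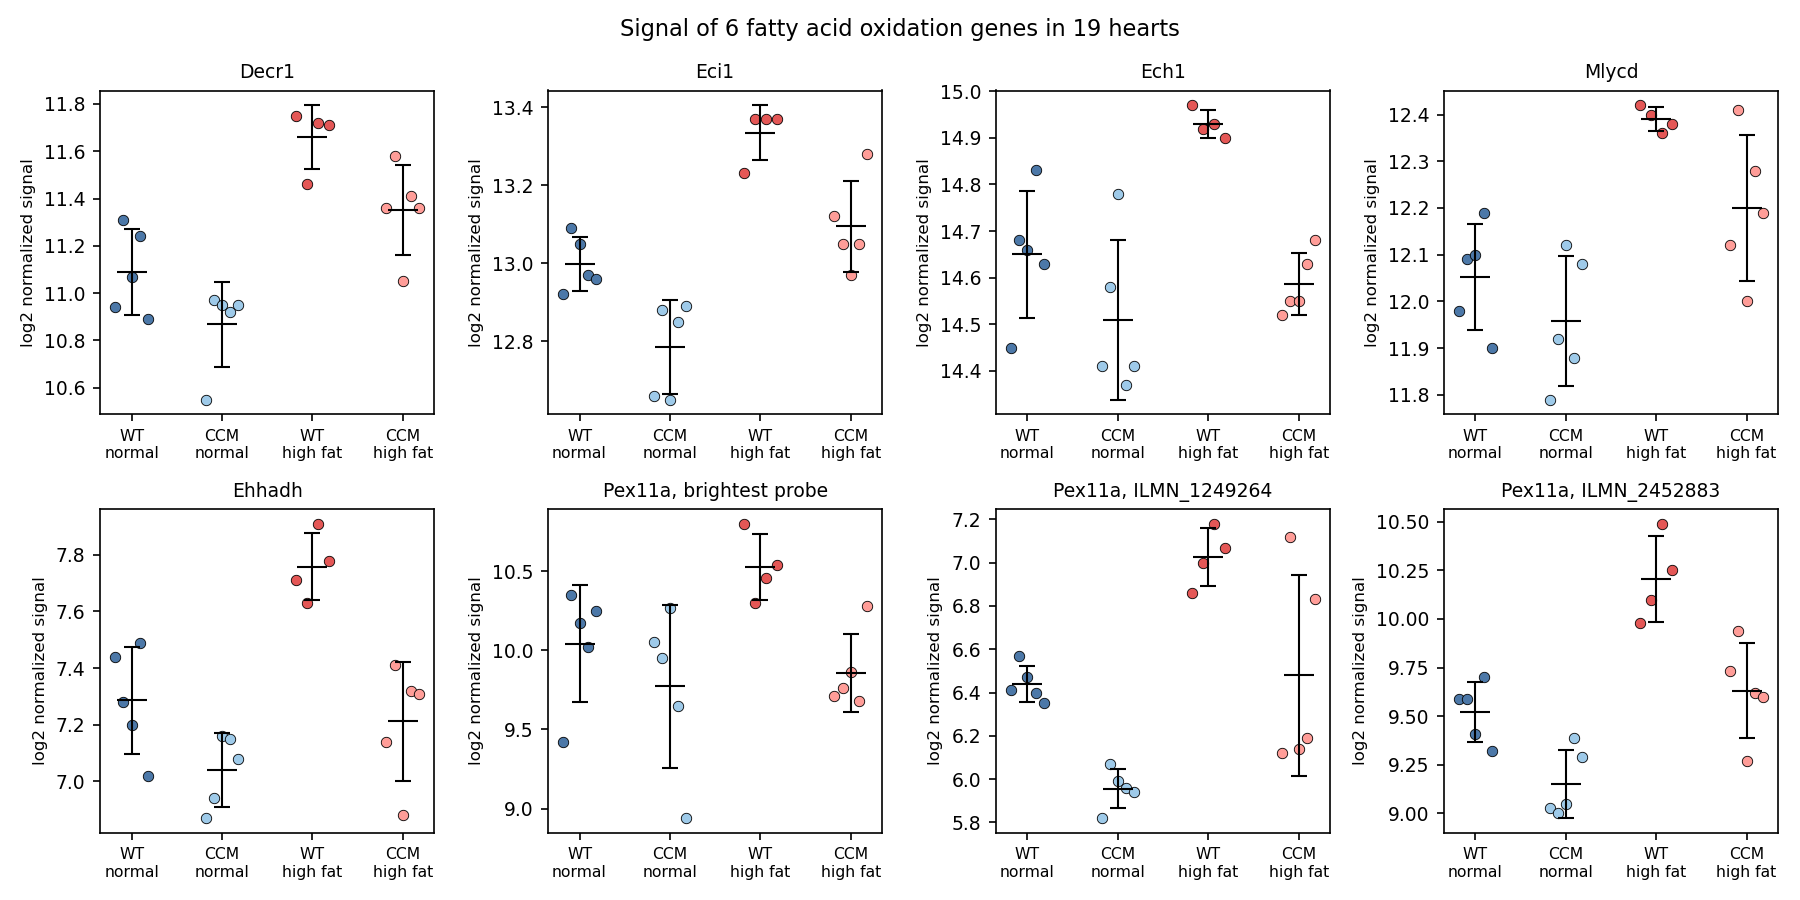
Log2 normalized signal in each heart (points) of 6 genes in the 4 groups, with the group mean and SD (lines), and all 3 probes of Pex11a. In WT hearts on the high fat diet Decr1 (11.46 to 11.75), Eci1 (13.23 to 13.37), Ech1 (14.90 to 14.97) and Ehhadh (7.63 to 7.91) lie above every WT heart on the normal diet.

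Of 9 peroxisomal genes 7 were tested, with medians of 0.01 between the diets and 0.03 between the genotypes, and 1 fell. Ehhadh, the peroxisomal bifunctional enzyme of hydration and dehydrogenation, read 7.71, 7.63, 7.91 and 7.78 in WT and 7.14, 7.41, 6.88, 7.32 and 7.31 in CCM hearts on the high fat diet. On the normal diet it read 7.44, 7.28, 7.20, 7.49 and 7.02 in WT and 6.87, 6.94, 7.16, 7.15 and 7.08 in CCM hearts. On the high fat diet every CCM heart was below every WT heart, and on the normal diet the ranges overlapped. Ehhadh fell by 0.40 in CCM hearts over both diets (-0.40 ± 0.08, 1.32-fold, adjusted p = 0.00388) and by 0.55 on the high fat diet (-0.55 ± 0.12, 1.46-fold, adjusted p = 0.013). The second of these did not pass without WT high fat replicate 3 (adjusted p = 0.0568), nor when only the compared groups were fitted (adjusted p = 0.0521). On the normal diet the difference was -0.25 ± 0.11 (adjusted p = 0.465), and between the diets it was 0.47 ± 0.12 in WT and 0.17 ± 0.11 in CCM hearts. The difference of these responses was -0.30 (95% interval -0.64 to 0.03).

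Pex11a, which promotes the division of peroxisomes, was measured by 3 probes that did not give the same calls. The brightest read 10.80, 10.30, 10.46 and 10.54 in WT and 9.71, 9.76, 9.86, 9.68 and 10.28 in CCM hearts on the high fat diet, where the genotypes were apart. Its difference there was -0.67 ± 0.23 (adjusted p = 0.19), and over both diets -0.47 ± 0.16 (adjusted p = 0.103). The first passed with only the compared groups fitted (adjusted p = 0.0479). The second passed with array weights (-0.42, adjusted p = 0.0359) and without WT normal replicate 1 (-0.55, adjusted p = 0.0329). Fitted over all 19840 detected probes, the probe ILMN_2452883 fell in CCM hearts over both diets (-0.47 ± 0.09, adjusted p = 0.00364, where 4.15% of all probes changed) and on the high fat diet (-0.57 ± 0.13, adjusted p = 0.0323, where 1.59% did). It rose on the high fat diet by 0.58 ± 0.09 (adjusted p = 0.00662, where 0.237% did). It read 9.98, 10.10, 10.49 and 10.25 in WT and 9.73, 9.94, 9.27, 9.62 and 9.60 in CCM hearts on the high fat diet, and 9.59, 9.59, 9.41, 9.70 and 9.32 in WT and 9.03, 9, 9.05, 9.39 and 9.29 in CCM hearts on the normal diet. The WT hearts on the high fat diet were above all other hearts by this probe. The probe ILMN_1249264 also fell in CCM hearts (-0.52 ± 0.11, adjusted p = 0.00922) and rose on the high fat diet (0.55 ± 0.11, adjusted p = 0.0454). The high fat genotype call of ILMN_2452883 was lost without any of 7 animals (adjusted p up to 0.137), and the diet call of ILMN_1249264 without any of 15 (up to 0.137). With its 3 probes averaged, Pex11a passed as lower in CCM hearts on the high fat diet (-0.60, adjusted p = 0.00589) and over both diets (-0.49, adjusted p = 0.000509), and as higher on the high fat diet (0.47, adjusted p = 0.00827).

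The remaining peroxisomal genes did not pass. Acaa1a, the peroxisomal thiolase, whose sequence is close to that of Acaa1b so that the genes may not be told apart, gave -0.02 ± 0.05 between the diets and 0.05 ± 0.05 between the genotypes. The interval of its diet difference was -0.13 to 0.09. Decr2 and Pecr, reductases of peroxisomes, gave 0.01 ± 0.18 and -0.12 ± 0.12 between the diets. Abcd2 and Abcd3, which import fatty acids into peroxisomes, gave -0.08 ± 0.11 and 0.09 ± 0.14.

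The diet differences of the genes could be set side by side in the genotypes, which share no animals. By the probes that represented the genes, 8 enzymes in WT hearts had every high fat heart above every normal-diet heart, against 0.833% of all genes. They were Cpt2, Mlycd, Etfdh, Acaa2, Ech1, Eci1, Decr1 and Ehhadh. In CCM hearts 3 did, against 0.495% of all genes: Cpt2, Eci1 and Decr1. The median diet difference was 0.20 in WT and 0.10 in CCM hearts, and 25 and 24 of the 32 were above 0. Between the genotypes 1 enzyme, Eci1, was apart on the normal diet (1.59% of all genes lower) and 3 on the high fat diet, Ech1, Ehhadh and Pex11a, all lower in CCM (2.81% of all genes). No test of the difference between the responses passed, so the smaller count in CCM hearts does not show a smaller response.

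**Figure D3:**
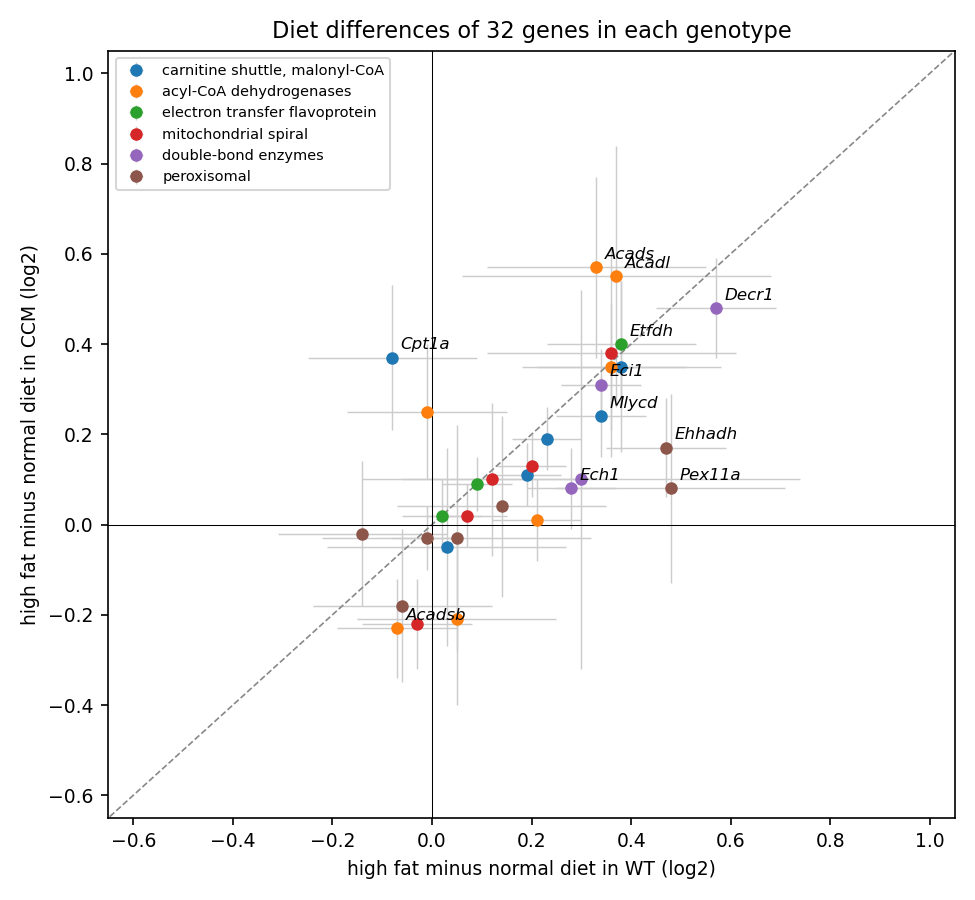
Diet difference (high fat minus normal, log2) of each of the 32 genes in WT hearts (horizontal axis) and CCM hearts (vertical axis), coloured by role, with standard errors in grey and the dashed line where both are equal. Decr1 (0.57 and 0.48) and Eci1 (0.34 and 0.31) lie near the line, Ehhadh (0.47 and 0.17) and Pex11a (0.48 and 0.08) below it, and Cpt1a (-0.08 and 0.37) above it.

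Heart by heart, the mean deviation of the 32 genes from their means was 0.135 ± 0.02 (SD, n = 4) in WT hearts on the high fat diet, from 0.113 to 0.158. It was 0.041 ± 0.07 in CCM hearts on the high fat diet, -0.052 ± 0.07 in WT and -0.097 ± 0.045 in CCM hearts on the normal diet (SD, n = 5 each). The 4 WT high fat hearts were above all hearts on the normal diet (up to 0.046), while CCM high fat hearts ran from -0.037 to 0.130 and overlapped them. The same mean over all genes stayed between -0.025 and 0.032. Within groups the enzymes spread about as widely as other genes, with a median residual SD of 0.23 (0.06 to 0.73) where all genes had 0.21.

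**Figure D4:**
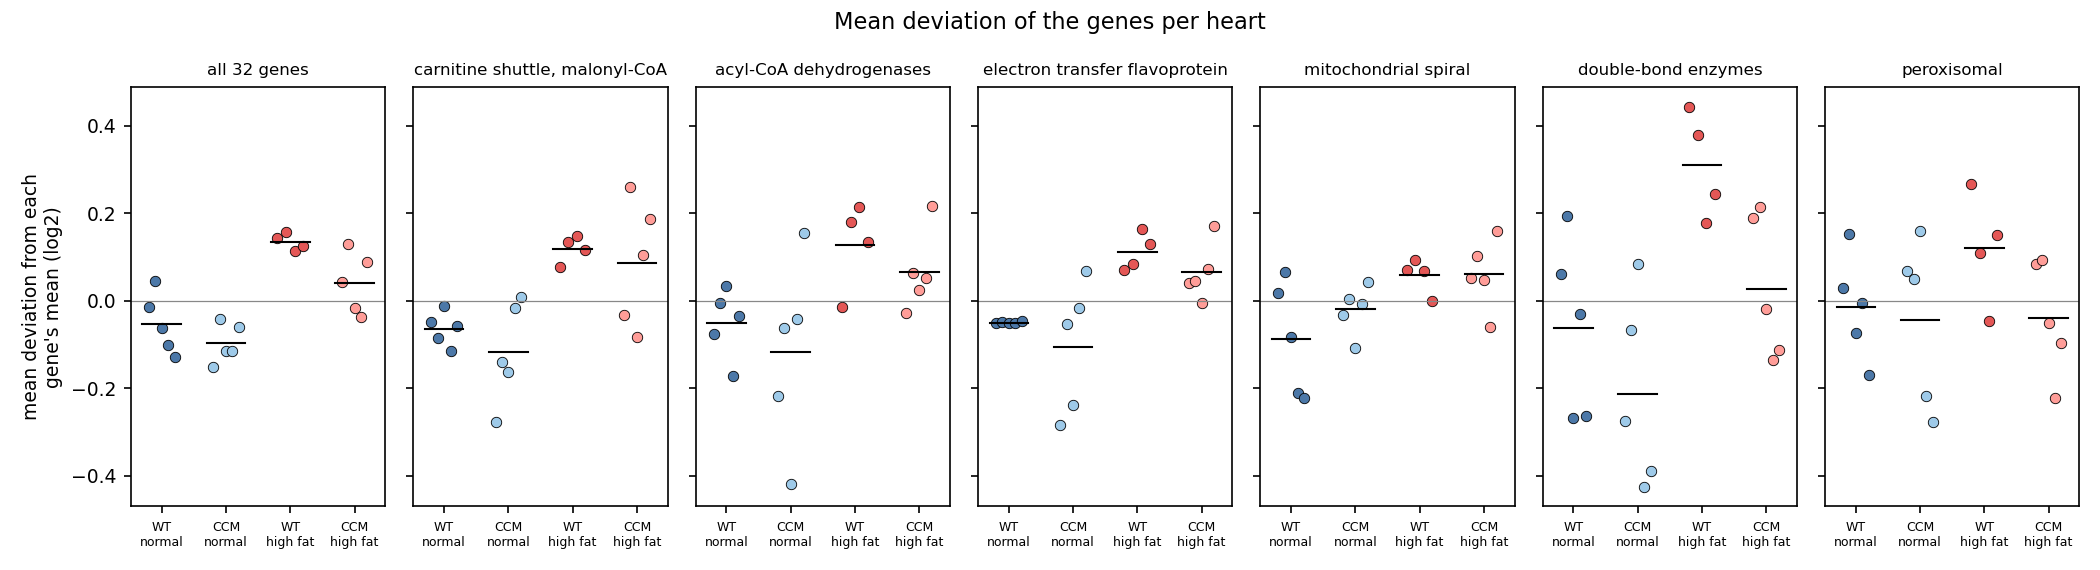
Mean deviation (log2) of the 32 genes, and of the genes of each role, from their own means in each heart (points), with group means as lines. The double-bond enzymes reach 0.444 in a WT heart on the high fat diet and -0.426 in a CCM heart on the normal diet, the widest range of the roles, and their mean holds Eci2, which read 8.75 and 7.07 in these hearts and differed by animal number.

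Some of the spread within groups ran along hearts and probes. In 7 of the 50 probes the lowest values of all 19 hearts belonged to WT normal replicate 4 and CCM normal replicate 3, which held for 2.54% of all detected probes. These hearts were chosen after their values were seen. The 7 probes were those of Acads and Decr2 (its dimmer probe), the brighter probes of Acadl and Hadh, the dimmer 2 of Acaa2 and 1 of Abcd3. Acadl read 9.53 and 9.57 in these hearts and 10.36 to 11.66 in the others, and Hadh 6.73 and 7.11 against 7.27 to 8.60. The brightest Acaa2 probe read 14.81 and 14.90 there, inside the range of the others, while its dimmer probes were at 9.42 to 9.71 and 9.17 to 9.63. Both hearts were on the normal diet, so they enter the diet differences directly. Without both, the diet difference went from 0.46 to 0.22 ± 0.15 for Acadl, from 0.37 to 0.20 ± 0.14 for Hadh, from 0.45 to 0.32 ± 0.13 for Acads, and from 0.67 and 0.75 to 0.47 ± 0.15 and 0.49 ± 0.17 for the dimmer Acaa2 probes. Decr1 was at 0.55 and passed (adjusted p = 0.0157). What sets these hearts apart was not tested.

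The hearts also divided by the animal numbers in the labels, a division examined because an earlier analysis of these data had noted it, and whose meaning the labels do not give. Of the animals 10 were numbered under 20 and 9 over 20, with every group on both sides. Of the 32 enzymes 7 differed between the sides, 2 higher and 5 lower in the animals over 20 (21.9%), where 15.2% of all genes did. Eci2 read 8.21 to 8.88 (median 8.65) under 20 and 7.07 to 7.93 (median 7.29) over 20, with no overlap and a difference of -1.25 ± 0.11 (adjusted p = 2.06e-07). Abcd3 read 11.45 to 11.74 under and 10.86 to 11.17 over 20, with no overlap and a difference of -0.60 ± 0.04 (adjusted p = 3.43e-08). Such gaps with the animals over 20 lower occurred in 2.4% of all genes. Pecr (-0.44), Decr2 (-0.62) and Acadsb (-0.22) were also lower and Crat (0.36) and Acadm (0.29) higher in the animals over 20. The dimmer Acadl probe read 9.66 to 10.24 under and 8.51 to 9.34 over 20, with no overlap (-1.14 ± 0.11, adjusted p = 8.82e-07 over all probes), whereas the brighter one read 9.57 to 11.33 and 9.53 to 11.66. The other 2 probes of Abcd3 overlapped between the sides too (-0.07 ± 0.13 and 0.06 ± 0.11). The dimmer Cpt2 probe was lower over 20 (-0.22 ± 0.05, adjusted p = 0.00515 over all probes), and the brighter gave -0.06 ± 0.05.

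**Figure D5:**
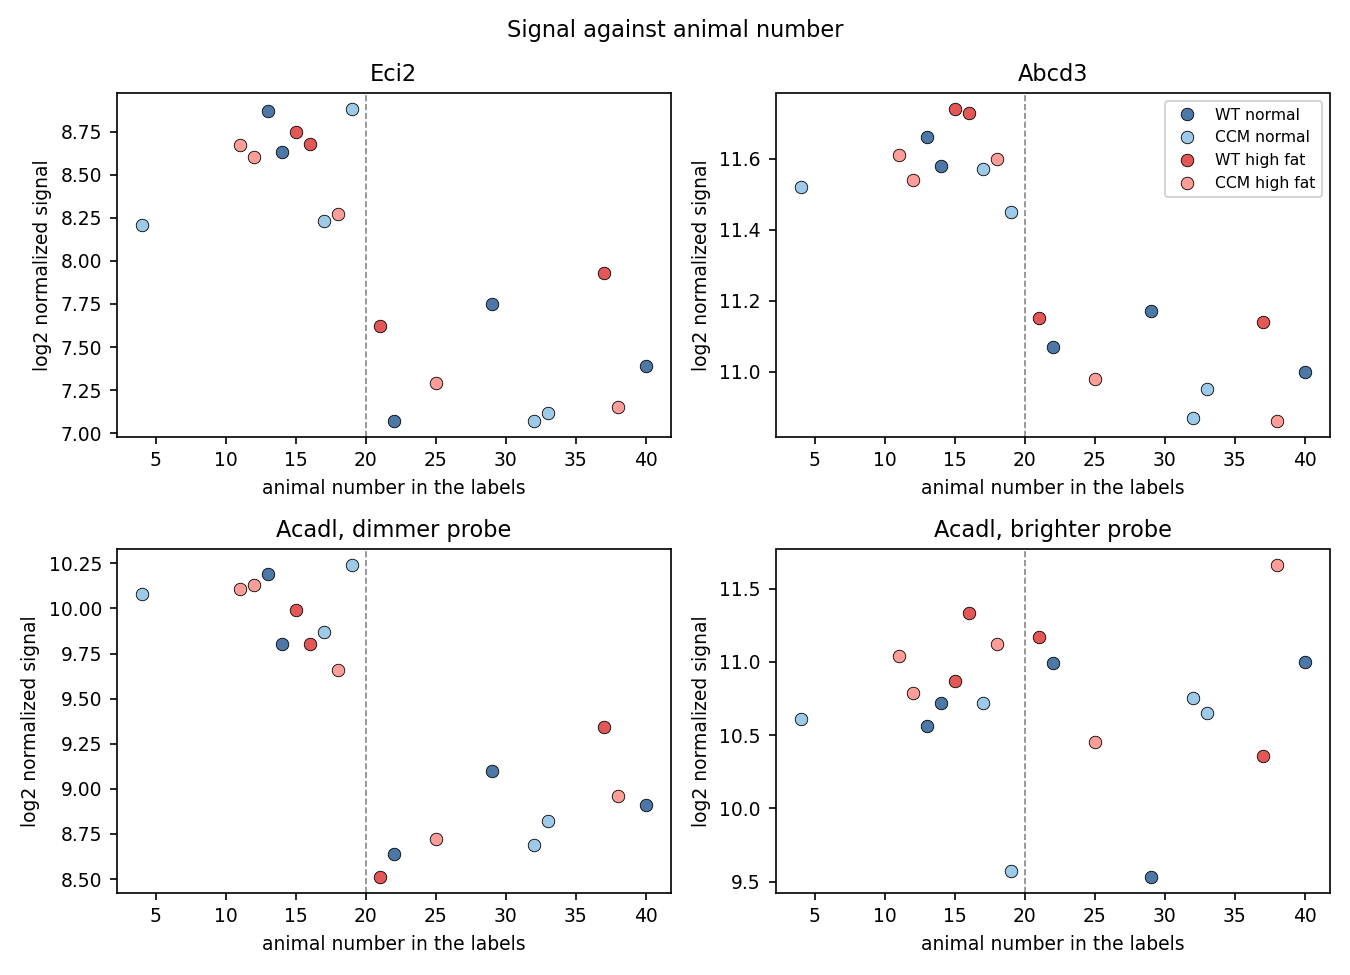
Log2 normalized signal of Eci2, Abcd3 and both Acadl probes in each heart against the animal number in the labels, coloured by group, with a dashed line at 20. Eci2 (at most 7.93 over 20), Abcd3 (at most 11.17) and the dimmer Acadl probe (at most 9.34) drop across the line in every group, and the brighter Acadl probe does not.

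With the side of 20 as a block in the fit, Acadsb (-0.25, adjusted p = 0.02) and Abcd3 (-0.16, adjusted p = 0.0332) passed as lower in CCM hearts beside Ehhadh, Eci1 and Ech1, 5 of 32 where 6.27% of all genes changed. Mlycd passed beside Decr1 and Eci1 as higher on the high fat diet (0.29, adjusted p = 0.0482), 3 of 32 where 0.461% did. On the high fat diet Ehhadh alone passed (adjusted p = 0.0115, where 2.68% did). Within the animals under and over 20 alone, the genotype difference of Ehhadh was -0.45 and -0.33, that of Eci1 -0.26 and -0.16 and that of Ech1 -0.19 and -0.28. The diet difference was 0.49 and 0.55 for Decr1 and 0.31 and 0.34 for Eci1. These directions were the same on both sides, and 0 of the 32 enzymes passed in either side alone.

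Other genes of the pathway were read from lists written with general knowledge and with earlier results of these data known. Between the genotypes 5.02% of all genes changed, 2.4% higher and 2.62% lower. Of 10 measured genes of 16 that activate or take up fatty acids, 0 passed between the diets and Acsl6, an acyl-CoA synthetase, fell in CCM hearts (-0.41 ± 0.12, adjusted p = 0.0494, lost without any of 15 animals). Of 27 measured of 33 further oxidation genes, 0 passed between the diets and 2 fell in CCM hearts: Slc22a5, the carnitine transporter of the plasma membrane (-0.50 ± 0.12, adjusted p = 0.0135, lost with its probes averaged), and Hibadh, of valine breakdown (-0.19 ± 0.05, adjusted p = 0.0358, lost without any of 13 animals). Of 17 measured of 19 peroxisome genes, 0 passed in either. Of 26 measured of 27 regulators, Prkab2, a subunit of AMP-activated kinase, rose in CCM hearts (0.36 ± 0.08, adjusted p = 0.0126) and the deacetylase Sirt1 fell (-0.34 ± 0.10, adjusted p = 0.0411, lost without any of 13 animals), while 0 passed between the diets.

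Known PPAR alpha targets outside the oxidation enzymes were read the same way. Their list too was written with earlier results of these data known, so its counts are not independent of them. Of 22 measured of 28, 8 rose on the high fat diet over both genotypes and 14 did not pass, where 0.251% of all genes rose. Their differences ran from -0.49 to 2.57 with a median of 0.33, and the median of the enzymes was 0.15; the difference between these lists was not tested. Cidea, a lipid droplet protein, was among the 8 (0.70 ± 0.09, adjusted p = 0.00102). The hormone gene Fgf21 passed too, but its signals on the normal diet (4.71 to 5.18) were near those of a Clock probe detected on 0 arrays (4.77 to 5), so no size is given for it. Between the genotypes over both diets 2 of the 22 passed as higher in CCM hearts, Cidea (0.39 ± 0.09, adjusted p = 0.0106, lost without the 3 dimmest arrays) and Fgf21, and 0 fell. Of all genes 2.4% rose and 2.62% fell in this comparison. The list as a whole had 12 of 22 differences below 0, with a median of -0.02.

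Markers of other cells were read beside these results. Of 8 adipocyte markers 4 were measured, Plin1, Lep, Retn and Ucp1 were not detected on enough arrays, and the summed linear signal of the 4, which include Cidea, was 1010 to 1370 in WT and 1370 to 3300 in CCM hearts on the normal diet, and 1600 to 2500 and 1730 to 2660 on the high fat diet. These sums were higher on the high fat diet in WT hearts, as Decr1, Eci1 and Ehhadh were, and overlapped between the diets in CCM hearts. Cidea, also among the PPAR alpha targets above, was the brightest of the 4 in every WT heart. It read 9.4 to 9.73 there on the normal diet and 9.99 to 10.55 on the high fat diet. The single markers did not all move as the sums did. Between the diets all 4 differences were above 0 in WT hearts (0.36 to 0.74), and in CCM hearts 2 were above and 2 below 0 (-1.18 to 0.67). At an unadjusted p under 0.05, limma gave 1 higher and 2 lower on the high fat diet in CCM hearts (4.27% and 4.49% of all genes). Of 3 skeletal muscle markers measured of 7, Acta1, an actin, was higher in CCM hearts on the high fat diet (0.67 ± 0.15, adjusted p = 0.0171, lost without 1 animal), and the differences ran from -0.26 to 0.67 with a median of 0.08. Of 4 smooth muscle markers measured of 5, all were below 0 there and Acta2, an actin, passed (-0.69 ± 0.17, adjusted p = 0.0373, lost without any of 7 animals). Of all genes 51.3% were below 0 in this comparison, 1.09% fell and 0.86% rose. Summed erythroid signals were 92100 to 128000 in CCM and 133000 to 148000 in WT hearts on the normal diet, with no overlap. Their part in the differences of the oxidation enzymes was not tested.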

How the data were processed

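Signals of 46643 probes on 19 Illumina bead arrays, 1 per heart, were used. The authors deposited linear probe intensities not normalized between arrays and, per the file headers, for each probe a detection p-value on every array, made with BeadStudio 3 per the submitters' processing notes. The sources used here do not give its background settings. The normalized intensities the authors deposited served only as an alternative.

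Intensities were corrected with neqc of limma 3.58.1 in R 4.3.3 (background from detection p-values, offset 16, quantile normalization, log2). Probes detected at p under 0.05 on at least 4 arrays were kept (19840), and the brightest stood for its gene (14761 genes). Group means were fitted with lmFit and eBayes (residual degrees of freedom 15, prior 3.62), p-values were adjusted over all genes by Benjamini-Hochberg, and the code was tested on simulated data. The number of arrays limits the precision. Animals are the replicates, grouped by genotype and diet from the labels.

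Symbols came from RefSeq names (assembly GRCm38.p6) through accessions for 26165 probes, current symbols for 4619 and older symbols for 3903, and 11956 kept the name in the table. For 1 probe an older symbol would have turned it into one of the 37 genes, and its own name was kept. Promoter windows came from RefSeq. Detected dimmer probes whose diet differences over both genotypes are not given above read as follows. They gave 0.18 ± 0.07 (Cpt1b), -0.05 ± 0.09 (Acad9), 0.03 ± 0.05 (Etfa) and 0.22 ± 0.11 (Hadh). Those of Decr2 and Abcd2 gave -0.03 ± 0.14 and -0.04 ± 0.07, and those of Abcd3 0.06 ± 0.12 and 0.26 ± 0.10. All 37 genes are named, and of other lists up to 3 genes per comparison, those passing with the smallest p. A gene that this rule names is not reported here. The genes and lists were chosen with earlier results of these data known. Alternatives were other background corrections, normalizations, detection filters, probe rules, variance models, array weights, fits of only the compared groups, a block for the animal number, leaving out animals, and, chosen after seeing the data, leaving out 2 hearts on the normal diet. Columns not used numbered 0.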

Additional observations from a re-analysis of the deposited data

Results flagged for a closer look

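Of 128 groups of 4 or 5 hearts (32 genes in 4 groups), 12 held a heart far from the others relative to the range of its group (9.38%). The cutoff is one that flags about 5%, or 1 in 20, of groups of independent, normally spread values. The share over all genes was not counted, so the 9.38% is not read as an excess. Cpt1a was high in WT normal replicate 1 (6.46, others 5.63 to 5.78) and in CCM high fat replicate 2 (6.74, others 5.92 to 6.09). Acacb was high in CCM high fat replicate 5 (7.14, others 6.11 to 6.37). Acadl was low in CCM normal replicate 3 (9.57, others 10.61 to 10.75), and Acadm in WT high fat replicate 1 (13.83, others 14.23 to 14.26). Acad10 had 1 high heart in 3 groups, at 6.69 in WT normal replicate 4 (others 6.09 to 6.19), 6.86 in CCM normal replicate 5 (others 5.85 to 6.06) and 6.42 in CCM high fat replicate 4 (others 5.72 to 5.90). Eci1 was low in WT high fat replicate 1 (13.23, others at 13.37), and Decr1 in WT high fat replicate 2 (11.46, others 11.71 to 11.75) and in CCM normal replicate 1 (10.55, others 10.92 to 10.97). Decr2 was low in WT high fat replicate 3 (5.28, others 6.02 to 6.07). Of these genes Eci1 and Decr1 passed between diets, and both differences between the diets still passed when any 1 of the 19 animals was left out.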

How the results depend on the processing

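The number of the 32 enzymes that changed was 0 on the normal diet between genotypes, in each genotype between diets and for the difference of the diet responses, under every alternative run. The dimmer Pex11a probes are outside these counts in the alternatives that follow. ILMN_2452883 passed between the diets in WT hearts without background correction (0.62, adjusted p = 0.048) and with array weights (0.76, adjusted p = 0.0226). On the normal diet ILMN_1249264 passed as lower in CCM hearts with only the compared groups fitted (-0.48, adjusted p = 0.0192) and without CCM high fat replicate 2 (adjusted p = 0.0483). Between the genotypes on the high fat diet, 1 enzyme became 2 without background correction, with the authors' normalized values, with all probes singly, with probes averaged, with trended and robust variances, with array weights and without the 2 normal-diet hearts. It became 0 in the animals numbered under 20 alone and in those over 20 alone. Leaving out each animal gave 0 to 2 (0 without WT high fat replicate 3, 2 without CCM normal replicate 3 or WT normal replicate 1). Over both diets, 3 became 1 with arrays shifted to equal medians and without the 3 dimmest arrays, 5 with the animal number as a block, and 0 in each side of it alone, with 2 to 4 on leaving out each animal. Between the diets over both genotypes, 2 became 4 without background correction, with cyclic loess, with the authors' values and with trended and robust variances, 6 with array weights, 1 without the 2 normal-diet hearts, and 0 in each side alone and without the 3 dimmest arrays. Leaving out each animal gave 2 to 5 (4 without CCM high fat replicate 3, 5 without CCM normal replicate 5). The causes of these changes were not tested, beyond the fewer animals that some alternatives hold. Stability was read over 263 pairs of gene or probe and comparison. These held the 32 enzymes and the dimmer Pex11a probes, and also genes of the other lists and cell markers in the comparisons where they had passed. Of the values, 8990 stayed on their side of the threshold, 275 no longer passed, 44 newly passed and 0 passing values changed direction. In 429 the sign changed with neither value passing. The genes of other lists could lose a call but not gain one, and they hold part of the 275. No paired analysis was possible because the labels number each animal once over the whole study, and the replicate numbers used here were given in the order of the samples, only to name them.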
